A study of Drosophila melanogaster with 5 samples.

Results

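The genes described here are 9 target genes of the Toll immune pathway of Drosophila melanogaster: drosomycin (Drs), metchnikowin (Mtk) and the 7 bomanins BomS1, BomS2, BomS3, BomS5, BomBc1, BomBc2 and BomBc3. They were chosen by gene name among 24034 annotated features of the count table at 29 °C and found by the same gene identifier among 23882 features of the count tables at 25 °C. PolyA RNA was sequenced from 5 labelled samples, 1 in each of 5 groups, named as heads in the titles and as brain in the tissue label. At 25 °C the groups were wild-type flies fed Levodopa, the precursor of dopamine, at 4 g/L in the food for 7 days, and untreated wild-type flies. At 29 °C they were H1 overexpression flies (H1OE), wild-type flies fed Levodopa at the same dose and time, and wild-type flies with no treatment named. The question set by the study's design was whether the linker histone H1 is needed and sufficient for a state that Levodopa triggers in flies.

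For H1OE, a temperature-sensitive driver of elav, a gene of neurons, was combined with an H1 overexpression strain in a cross kept at 18 °C, and the progeny spent 7 days at 29 °C. Wild type is the label of the control at 29 °C. Driver, genetic background and rearing at 18 °C therefore cannot be told apart from the overexpression. The labels used here give neither the age or sex of the flies nor the number of heads in a sample. The 23 annotated His1 genes, near-identical copies that encode H1, held 0 counts in the library labelled H1OE and 0 in both other libraries at 29 °C. These counts therefore do not check the label.

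Toll is one of the main immune pathways of flies. Circulating recognition proteins sense fungi or bacteria with lysine-type peptidoglycan and start a protease cascade that cleaves Spätzle, the ligand of the receptor Toll. Signalling through Myd88, tube and pelle then removes the inhibitor cactus, and the NF-κB factors Dif and dorsal switch on genes for secreted peptides, chiefly in the fat body, the insect counterpart of liver and adipose tissue. Drosomycin is an antifungal peptide and a standard readout of Toll. Metchnikowin is a proline-rich peptide that also responds to the Imd pathway, the other NF-κB pathway of flies. Bomanins are small secreted peptides needed for Toll-mediated resistance to infection. Short bomanins (BomS) consist of a single bomanin domain, whereas bicipital ones (BomBc) carry a pair of such domains.

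Of the 9 genes, 6 lie in 1 cluster on chromosome arm 2R. In the dm6 coordinates of the files these are BomBc1 at chr2R:18382704-18383235, BomS1 at chr2R:18383949-18384378, BomBc2 at chr2R:18384824-18385589, BomS2 at chr2R:18386602-18387030, BomS3 at chr2R:18387895-18388734 and BomS5 at chr2R:18389959-18390242. The cluster holds 10 bomanin genes over 9237 bases, the other 4 being BomT1, BomS4, BomT2 and BomS6. BomBc1 and BomBc2 are on the minus strand, and the other clustered genes described here are on the plus strand. BomBc2 shares 88 exonic bases with BomS4 on the opposite strand. Since the strand setting of the counting is not given in the sources used here, reads from that overlap cannot be assigned to either gene. Counts may also be split between bomanins of similar sequence, so differences between single bomanins are uncertain to that extent. Mtk is a single-exon gene at chr2R:15408846-15409113 inside an intron of Stacl, which runs on the same strand, and shares no exonic base with it. Drs is a single-exon gene at chr3L:3369556-3369942, and BomBc3 has 3 exons at chr3R:22087075-22088501.

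The libraries held 30074894 and 30334054 counts for Levodopa at 25 °C and 25947583 and 28856401 for the control. At 29 °C the totals were 26832877 for H1OE, 25975838 for Levodopa and 24770629 for the control. Each labelled sample at 25 °C has 2 count columns, and nothing in the sources used here says whether these came from separate flies. P-values at 25 °C are therefore relative to column spread alone, and that spread may be technical. Each group at 29 °C is 1 library, so no test was possible and no difference there has a replicate check. Tables of the 2 temperatures were made separately, and groups were compared only within a table. None of the 8 neuron and 6 photoreceptor markers was at 0 in any library. Neuron markers summed to 3640 and 3668 CPM, counts scaled to library size, in the Levodopa columns at 25 °C and to 2518 and 2484 CPM in the control columns. Their median log2 fold change was 0.54, with 0 called. With a trend on gene length removed the median was 0.13, and 3 of the 8 changed sign. Photoreceptor markers summed to 50112 and 49951 CPM in the Levodopa columns at 25 °C and to 63986 and 63752 CPM in the control columns. The largest differences were −0.76 for Arr2 and 0.53 for norpA, neither called. Over the 6 photoreceptor markers the median was −0.02, and −0.26 with that trend removed. At 29 °C they summed to 64039 CPM in H1OE, 65422 CPM with Levodopa and 63448 CPM in the control. Of 6 glia and 5 muscle markers, 0 were called in any of the 4 comparisons. That is near the share of all genes called, 1.15% to 3.77% in a given direction. Glia markers summed to 2168 CPM in H1OE, against 2697 CPM in the control and 2795 CPM with Levodopa at 29 °C. Of the 6, 5 were below 0 in H1OE against control, with a median log2 fold change of −0.30. Photoreceptors lie in the retina, which a dissected brain does not include.

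At 25 °C all 9 genes were lower in Levodopa-fed flies than in controls. Together they summed to 415 and 412 CPM in the Levodopa columns, against 1168 and 1182 CPM in the control columns. Drs had the largest difference, 11.3-fold, followed by BomBc1 with 9.10-fold. Mtk had the smallest, 1.37-fold. The Drs share of the summed counts was 7.69% and 7.54% in the Levodopa columns and 29.9% and 30.4% in the control columns.

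Drs stood at 31.9 and 31.1 CPM in the Levodopa columns, against 349 and 359 CPM in the control columns. Its log2 fold change was −3.49 ± 0.04 (SE). BomBc1, at 5.59 and 5.11 CPM with Levodopa and 50.4 and 47.0 CPM in controls, had a log2 fold change of −3.18 ± 0.09 (SE). For both genes the columns of the groups lay far apart. BomS1 and BomS5 fell by nearly the same amount, with log2 fold changes of −1.66 ± 0.06 and −1.66 ± 0.07 (SE). BomS1 had 22.1 and 22.4 CPM with Levodopa, against 70.3 and 70.5 CPM in controls. BomS5 had 18.8 and 16.2 CPM with Levodopa, against 53.5 and 57.3 CPM in controls. The columns of BomS5 were farther apart than those of BomS1, and the groups overlapped for neither.

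The bicipital gene BomBc2 fell to 53.6 and 52.9 CPM with Levodopa, against 128 and 139 CPM in controls, a log2 fold change of −1.32 ± 0.05 (SE). BomS3 fell to 92.8 and 89.4 CPM, against 191 and 186 CPM in controls, just past the 2-fold limit with a log2 fold change of −1.05 ± 0.04 (SE). Just short of that limit were BomS2, with −0.95 ± 0.05, and BomBc3, with −0.94 ± 0.04 (SE). BomS2 had 41.7 and 42.5 CPM with Levodopa and 82.2 and 80.8 CPM in controls, and BomBc3 had 65.2 and 66.8 CPM with Levodopa and 130 and 124 CPM in controls. Mtk had 83.0 and 85.9 CPM with Levodopa, against 113 and 118 CPM in controls, a log2 fold change of −0.46 ± 0.04 (SE). Mtk differed least of the 9 in this comparison.

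All 9 genes had a Benjamini-Hochberg adjusted p under 0.05 in edgeR's quasi-likelihood test, the largest being 1.34e-25 for Mtk, and for all 9 the columns of the groups did not overlap. The spread between columns was small, with a biological coefficient of variation of 2.866%, and 58.5% of the 11799 genes tested passed the same limit on p. A gene was therefore called only if it also differed at least 2-fold. By this rule 6 of the 9 were lower (Drs, BomS1, BomS3, BomS5, BomBc1 and BomBc2) and 0 were higher. Of all genes tested, 3.14% were called lower and 2.02% higher. The median log2 fold change was −1.32 over the 9 genes and −0.00342 over all genes. With the trend on gene length removed, 4 of the 9 were lower, without BomS3 at −0.69 and BomBc2 at −0.97.

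**Figure D1:**
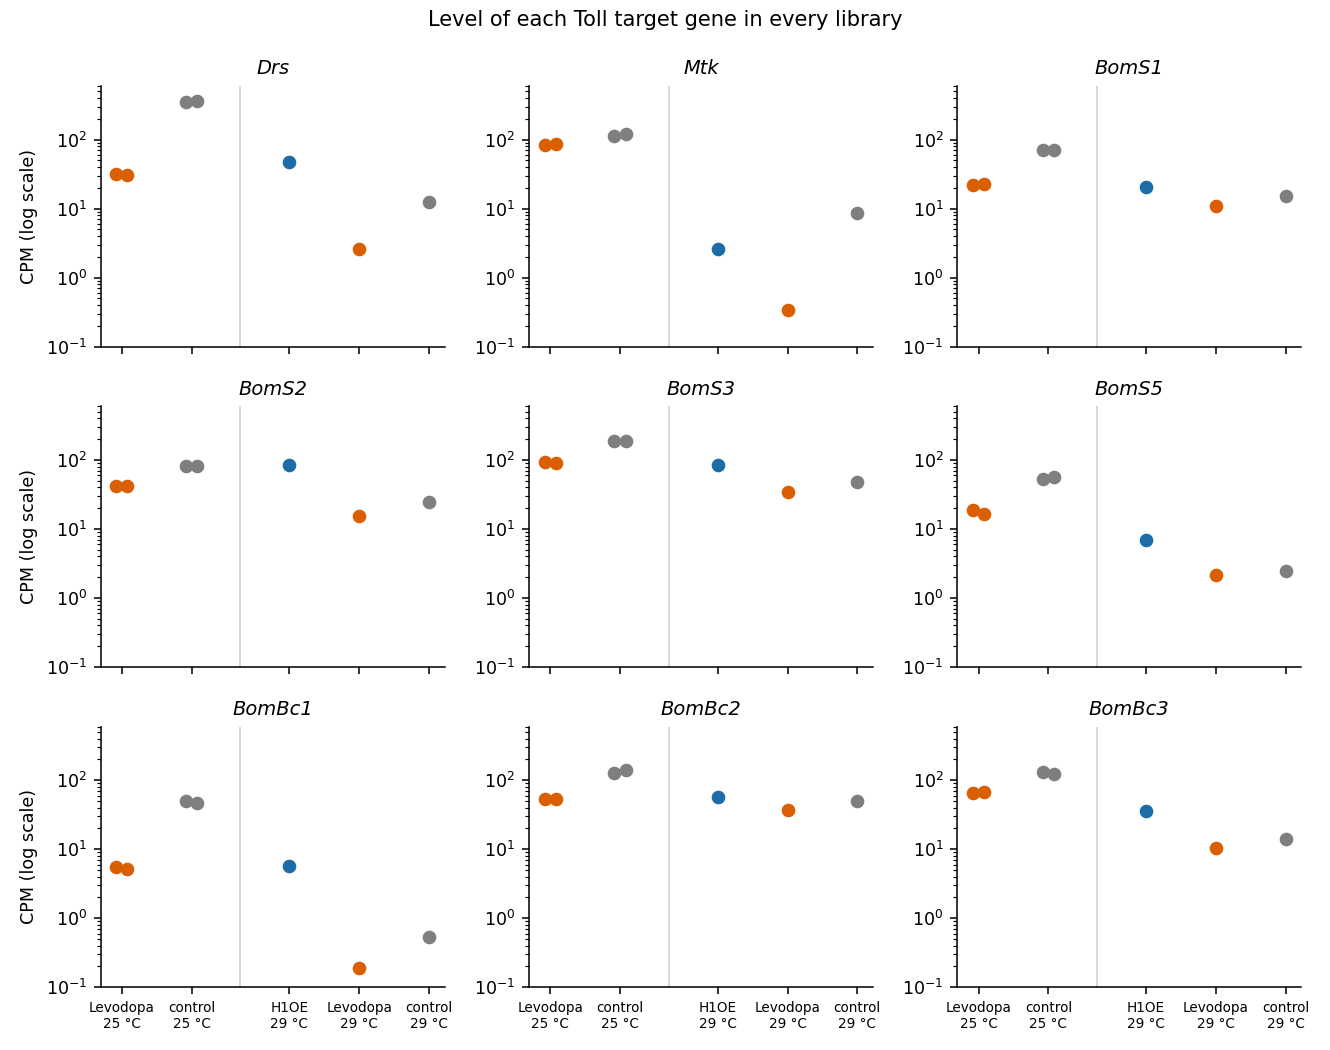
Level of each gene in CPM on a log scale, with 1 point for each count column or library and the 25 °C groups left of the 29 °C groups in each panel. At 25 °C the 2 Levodopa points lie below the 2 control points for all 9 genes, and at 29 °C the H1OE point is the highest of the 3 libraries for all but Mtk.

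Gene length bears on this comparison because most of the 9 genes are short. Their exonic lengths run from 218 bases for BomS5 to 1301 bases for BomBc3. At 25 °C genes of the shortest quartile (median 735 bases) had a log2 fold change of −0.30 at the median, and those of the longest quartile (median 5212 bases) of 0.36. The very shortest genes went the other way, with 0.47 at the median for the 592 genes around a median length of 288.5 bases. At the lengths of the 9 genes the smoothed trend ran from −0.36 to 0.03 and did not follow that bin, so for Drs, Mtk, BomS1, BomS2 and BomS5 the size of the correction is uncertain. With it removed, Drs stood at −3.31, BomBc1 at −2.95, BomS5 at −1.69 and BomS1 at −1.50, which still passed the 2-fold limit. BomS2 then stood at −0.78, BomBc3 at −0.61 and Mtk at −0.40. Scaling by total counts raised the median of all genes by 0.14 on the log2 scale and left BomS3 at −0.91, with 5 of the 9 called lower.

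**Figure D2:**
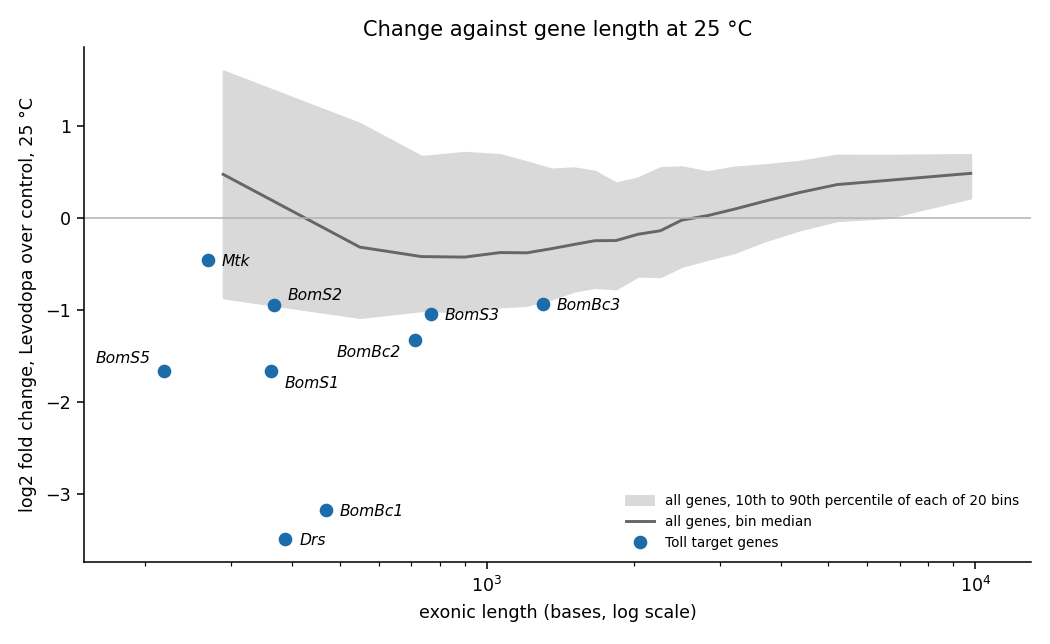
Log2 fold change of Levodopa over control at 25 °C against exonic length on a log scale, with the bin median and the 10th to 90th percentile of all genes in 20 bins of length. Drs at −3.49 and BomBc1 at −3.18 lie farthest below the grey band, and Mtk at −0.46 lies closest to 0 of the 9 genes.

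Markers of other tissues also differed at 25 °C, among them fat body and blood cells (haemocytes), which make these peptides. The 14 fat body markers summed to 5101 and 5096 CPM in the Levodopa columns, against 7215 and 7296 CPM in the control columns. Of 11 tested, 2 were lower and 1 higher. Lower were Cyp4g1, a cytochrome P450, with a log2 fold change of −4.05, and Obp99b, an odorant-binding protein gene, with −2.82. Lsp2, a larval serum protein gene, was higher with 3.10. Cyp4g1 stood at 0.24 CPM with Levodopa and 3.99 CPM in controls, and Lsp2 at 5.11 and 0.59 CPM, small parts of these sums. Whether each listed gene marks only its tissue in these heads was not tested. Lsp1alpha was at 0 in both control columns, and none of the 14 was at 0 in the Levodopa columns. The 12 haemocyte markers summed to 1055 and 1043 CPM with Levodopa and 1182 and 1176 CPM in controls, with none at 0. Of these, PPO1, a prophenoloxidase gene, and NimB4 were lower, with log2 fold changes of −1.17 and −1.15, 2 of 12 tested. Values of the 12 ran from −1.17 to 1.32 with a median of −0.09, and 7 were below 0. With the length trend removed NimB4 was not called. The share of all genes called was 3.14% lower and 2.02% higher. The 5 gut markers summed to 23.7 and 24.6 CPM with Levodopa and 49.96 and 47.8 CPM in controls. Of 3 tested, LysP, a lysozyme gene, was lower with a log2 fold change of −7.16. The gut markers alphaTry and Jon65Aiv were at 0 in both Levodopa columns, and Jon65Aiv was at 0 in 1 control column. In RNA of whole heads, fewer cells of a type and less RNA per cell cannot be told apart, and the part of these markers in the result was not tested.

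At 29 °C, Levodopa-fed flies again had the lower value for all 9 genes, and here Mtk and Drs differed most. Mtk had 9 counts (0.344 CPM) with Levodopa, against 209 counts (8.67 CPM) in the control, 25.2-fold lower with a 95% counting interval of 13.0 to 55.9. Drs had 67 counts (2.56 CPM) with Levodopa and 302 counts (12.5 CPM) in the control, 4.89-fold lower with an interval of 3.74 to 6.47. These exact intervals cover counting error only and say nothing of variation between flies. Differences are given as log2 fold changes with 10 counts added, and a gene was called when these passed 2-fold. By that rule Drs at −2.13 and Mtk at −3.63 were lower, 2 of the 9, and 0 were higher. Of 11145 genes tested, 1.54% were called lower and 1.15% higher. The median was −0.49 for the 9 genes and −0.0115 for all genes.

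All 7 bomanins lay between −0.68 and −0.16 at 29 °C, so none was called. BomS2 had 15.4 CPM with Levodopa and 24.9 CPM in the control, and was 1.61-fold lower with an interval of 1.42 to 1.83. BomS3 had 34.1 CPM with Levodopa and 48.0 CPM in the control. BomBc2 had 37.6 CPM with Levodopa and 49.5 CPM in the control. These differences exceeded counting error but were small. BomS1 stood at 10.97 CPM with Levodopa and 15.3 CPM in the control. BomBc3 stood at 10.4 CPM with Levodopa and 13.9 CPM in the control. For 7 of the 9 genes the counting interval excluded a ratio of 1, the exceptions being BomS5, with 57 counts against 60 in the control, and BomBc1, with 5 against 13. With 1 count added in place of 10, BomBc1 was also called, at −1.33.

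Fat body markers summed to 15455 CPM with Levodopa at 29 °C, against 20869 CPM in the control, with none at 0. Of 13 tested, 6 were lower and 1, Fbp1, was higher. Among those with enough counts the largest differences were −4.45 for Lsp1alpha and −2.31 for Yp1, a yolk protein gene. Haemocyte markers summed to 1787 CPM with Levodopa and 1763 CPM in the control, and 0 of 12 were called. Gut markers summed to 489 CPM with Levodopa and 893 CPM in the control, and Amy-p, an amylase gene, was lower at −2.60, 1 of 2 tested. The part of these markers in the differences of Drs and Mtk was not tested.

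In the library labelled H1OE, most of the 9 genes were higher than in the 29 °C control, and Mtk was lower. The genes summed to 346 CPM in H1OE and 176 CPM in the control. BomBc1 had the largest ratio, with 155 counts (5.66 CPM) in H1OE and 13 counts (0.539 CPM) in the control, 10.5-fold higher with an interval of 5.96 to 20.2. Drs had 1312 counts (47.9 CPM) in H1OE and 302 counts (12.5 CPM) in the control, 3.83-fold higher with an interval of 3.37 to 4.35. Thus the same pair of genes that differed most with Levodopa at 25 °C, where they were lower, had the highest ratios in H1OE.

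Among short bomanins, BomS2 had 2305 counts (84.2 CPM) in H1OE and 599 counts (24.9 CPM) in the control, 3.39-fold higher with an interval of 3.10 to 3.71. BomS5 had 191 counts (6.98 CPM) in H1OE and 60 counts (2.49 CPM) in the control, 2.80-fold higher with an interval of 2.09 to 3.81. BomBc3, the bicipital bomanin of chromosome arm 3R, had 983 counts (35.9 CPM) in H1OE and 336 counts (13.9 CPM) in the control, 2.58-fold higher with an interval of 2.27 to 2.93. The remaining bomanins fell short of 2-fold. BomS3 had 85.3 CPM in H1OE and 48.0 CPM in the control, a ratio of 1.77. BomS1 had 20.6 CPM in H1OE and 15.3 CPM in the control, a ratio of 1.35. BomBc2 was closest to no difference, with 57.0 CPM in H1OE and 49.5 CPM in the control, a ratio of 1.15 with an interval of 1.07 to 1.24.

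Mtk had 72 counts (2.63 CPM) in H1OE and 209 counts (8.67 CPM) in the control, 3.30-fold lower with an interval of 2.51 to 4.37. In all, 5 of the 9 genes were called higher (Drs, BomS2, BomS5, BomBc1 and BomBc3) and 1, Mtk, lower, and all 9 intervals excluded a ratio of 1. Over the 11340 genes tested, 3.35% were called higher and 3.77% lower. The median log2 fold change was 1.34 for the 9 genes and −0.00487 for all genes. These 3 libraries enter more than 1 comparison, so the comparisons at 29 °C are not independent of each other.

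Fat body markers were lower in H1OE, where they summed to 7907 CPM, against 20869 CPM in the control, while Drs and most bomanins were higher. Of 11 tested, 8 were lower and 0 higher, the largest differences being −6.96 for Lsp1alpha and −6.40 for fit, a female-enriched fat body gene. The yolk protein genes Yp1 and Yp2 were also among the 8. The labels do not give the sex of the flies, and its part in these values was not tested. Haemocyte markers summed to 1289 CPM in H1OE and 1763 CPM in the control, with 0 of 12 called, and none of either list was at 0. The largest differences among haemocyte markers were −0.80 for PPO1 and −0.70 for Hml, a hemolectin gene. Gut markers summed to 720 CPM in H1OE and 893 CPM in the control, with Amy-p higher at 1.03 and Amy-d, the other amylase gene, lower at −1.15. At 29 °C the gut markers alphaTry and Jon65Aiv were at 0 in every library, and LysP was at 0 in H1OE and the control. The part of these markers in the H1OE result was not tested.

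Set against Levodopa at 29 °C, H1OE had the higher value for all 9 genes. BomBc1 was 29.6-fold higher with an interval of 12.4 to 92.5, from 155 counts in H1OE and 5 with Levodopa. Drs was 18.7-fold higher, with an interval of 14.6 to 24.3. Mtk was 7.65-fold higher, with an interval of 3.81 to 17.4 on 72 counts in H1OE and 9 with Levodopa. The called genes were these and BomS2, BomS3, BomS5 and BomBc3, 7 of the 9, with 0 lower. Of all genes tested, 3.15% were called higher and 3.01% lower. The median log2 fold change was 1.75 for the 9 genes and 0.00173 for all genes. BomS1 and BomBc2, at ratios of 1.88 and 1.52, were not called. Mtk was thus intermediate in H1OE, above its level with Levodopa and below the control, whereas H1OE was the highest of the 3 libraries for the other 8 genes. Fat body markers summed to 7907 CPM in H1OE and 15455 CPM with Levodopa, with 6 of 13 called lower. The gut marker Amy-p was higher in H1OE at 3.63, and the part of either list in this difference was not tested.

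Neighbouring genes of the 2R cluster differed in how far they moved. BomBc1 lies between BomT1 and BomS1, and the log2 fold change in H1OE against control was 2.71 for BomBc1, 0.42 for BomS1 and 0.20 for BomBc2. Farther along, BomS2 stood at 1.75, BomS3 at 0.82 and BomS5 at 1.36. The 4 other bomanins of the cluster were not called in H1OE, with 0.58 for BomT1, 0.07 for BomS4, 0.04 for BomT2 and −0.26 for BomS6. The 3 called genes of the cluster, BomBc1, BomS2 and BomS5, were not next to each other. With Levodopa at 25 °C all 10 genes of the cluster had a negative value, from −3.18 for BomBc1 to −0.26 for BomT1, and BomS6 at −1.35 was called as well. BomT3, next to BomBc3 on arm 3R, stood at −0.35 with Levodopa at 25 °C and at 0.48 in H1OE.

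**Figure D3:**
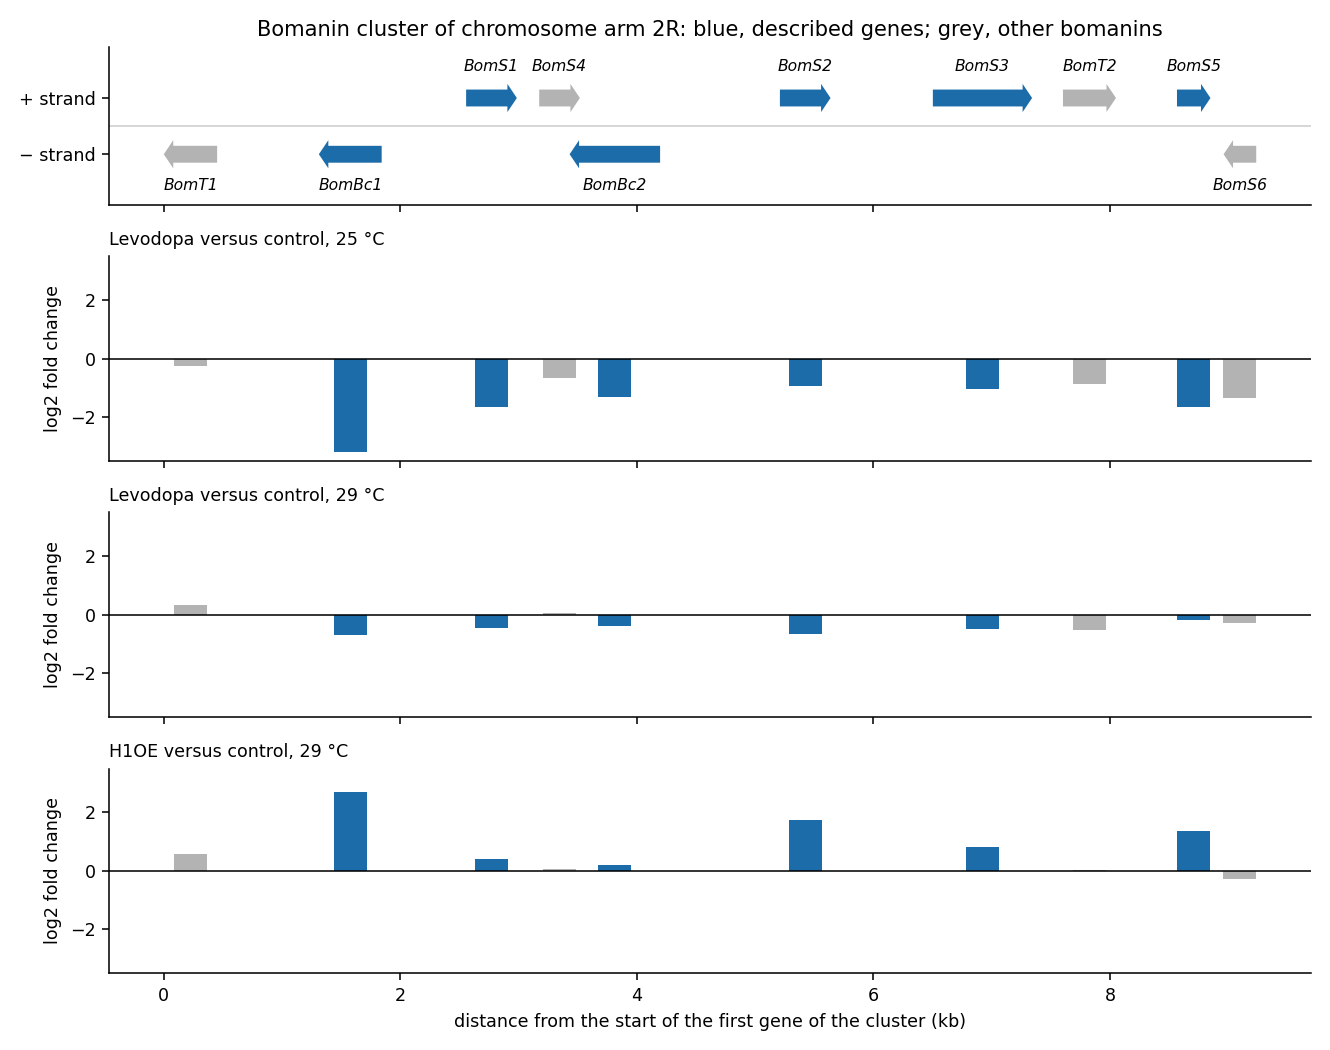
Genes of the bomanin cluster by distance from the start of the first gene in kilobases, with arrows for strand and bars for the log2 fold change in 3 comparisons. BomBc1 has the lowest bar with Levodopa at 25 °C, −3.18, and the highest in H1OE, 2.71, while the genes beside it, BomT1 and BomS1, stand at 0.58 and 0.42 in H1OE.

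Levels between genes were compared per length, by the authors' FPKM. With Levodopa at 25 °C, Mtk led at 330 FPKM, ahead of BomS3 at 124 and BomS2 at 120, and Drs came next at 85.3 FPKM. It, BomS5 at 84.2 and BomBc2 at 78.5 FPKM followed each other without a gap beyond the range of their columns, and BomBc1 was lowest, with columns at 12.6 and 11.4 FPKM. In the 25 °C control Drs led at 872 FPKM, followed by Mtk at 412, BomS5 at 242 and BomS3 at 234 FPKM. The columns of BomS5 and BomS3 overlapped. BomBc1 at 99.1 and BomBc3 at 93.0 FPKM were lowest in that control.

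At 29 °C the order of the genes also differed between the groups. In H1OE, BomS2 led at 235 FPKM, with Drs next at 127 and BomS3 at 113 FPKM, while BomBc1 at 12.4 and Mtk at 10.03 FPKM came last and did not differ beyond counting error. With Levodopa, BomBc2 led at 53.7 FPKM, Drs stood at 6.73 FPKM, and Mtk at 1.31 and BomBc1 at 0.415 FPKM were lowest. The control had BomBc2 at 70.2, BomS2 at 68.3 and BomS3 at 63.0 FPKM, with overlapping counting intervals between neighbours. Drs and Mtk both stood at 32.6 FPKM there, and BomBc1 at 1.16 FPKM was lowest.

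Profiles over the 5 groups were compared by the Euclidean distance between log2 CPM values, centred within each temperature, as a description over 5 samples. Genes outside the 9 entered when they had at least 50 counts in 1 library of each temperature. Of the 8 other genes described here, BomBc1 was nearest to Drs at a distance of 1.06, and 0 genes outside the 9 came nearer among 8940 compared. BomS2 followed at 2.19 and BomS5 at 2.27, with 2 and 3 outside genes nearer to Drs than they were. For BomBc3 that number was 7, for BomS1 and BomS3 12 each, and for BomBc2 42. Mtk was farthest at 3.27, with 338 outside genes nearer to Drs. Among the 36 pairs of the 9 genes, BomS1 and BomBc2 were nearest to each other at 0.316, and Mtk and BomBc1 were farthest apart at 3.63. The 5 other genes nearest to Drs were y, SPH93, CG33470, CG16713 and GNBP-like3, at distances of 1.96 to 2.38. The gene y, required for black cuticle pigment, had 28 and 23 counts with Levodopa and 63 and 84 counts in controls at 25 °C. At 29 °C it had 115 counts in H1OE, 3 with Levodopa and 5 in the control. Like BomBc1, it reached 50 counts at 29 °C only in H1OE, where Drs was also highest. The likeness of y and BomBc1 to Drs at 29 °C is thus no independent result. SPH93, a serine protease homologue that is also among the other Toll targets, was the only one of these 5 at 0 in a library.

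Further Toll targets had a median log2 fold change of −0.90 with Levodopa at 25 °C and 0.21 in H1OE against the 29 °C control. Of 14 found, 13 were tested with Levodopa at 25 °C, where 3.14% of all genes tested were called lower and 2.02% higher. Among the 13, 6 were lower and 0 higher. These were SPH93 at −1.75, CG18067 (bombardier, known to act with short bomanins) at −1.46, BomS6 at −1.35, CG33470 (an immune-induced BaraA gene) at −1.31, IM4 (the antifungal peptide Daisho) at −1.22 and IM33 at −1.01. IM33 was at the limit. It was not called with total counts (−0.87), DESeq2 (−0.99), a filter of 50 counts (−0.97), without Levodopa column 1 (−0.99) or without control column 2 (−0.98). With the length trend removed, SPH93, CG18067 and BomS6 were the ones called. At 29 °C Levodopa gave 1 call among 13 tested, SPH93, beside 1.54% of all genes called lower. SPH93 had 0 counts against 56 in the control, at least 20.3-fold lower when 3 counts are allowed for the 0.

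In H1OE, 2 of 14 of these targets were higher than in the control and 0 lower, beside 3.35% and 3.77% of all genes tested. CG33470 had 2505 counts in H1OE and 789 in the control, 2.80-fold higher with an interval of 2.58 to 3.03. IMPPP, which encodes a precursor of several immune-induced peptides, had 183 counts in H1OE and 26 in the control, 6.20-fold higher with an interval of 4.10 to 9.75. Against Levodopa at 29 °C, H1OE was higher for both and for SPH93, 3 of 14, the last of these not with 50 counts added. The share of all genes called higher there was 3.15%. CG33470 has a near-identical copy, and reads may have been split between the copies. The listed name BaraA2 matched no gene here. Whether IMPPP is that copy was not checked, so the calls of CG33470 and IMPPP may not be separate. Of 6 paralogs of Drs, 2 had enough counts to be tested in H1OE against control, Drsl4 and Drsl5. Both had lower values in H1OE, with log2 fold changes of −0.98 for Drsl4 and −0.52 for Drsl5, neither of them called. With Levodopa at 25 °C they did fall, with −2.78 for Drsl4 and −1.68 for Drsl5 on the log2 scale, 2 of 3 tested.

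Genes upstream of the peptides were mostly not called. Of 22 signalling genes tested in each comparison, 3 were lower with Levodopa at 25 °C and 0 higher. These were PGRP-SA, which recognises lysine-type peptidoglycan, at −1.17, SPE, the protease that cleaves Spätzle, at −1.31, and nec, a serpin that restrains the cascade, at −1.001, at the very limit. With the length trend removed none of the 3 was called. The call of nec was also lost with total counts (−0.86), DESeq2 (−0.98), a filter of 50 counts (−0.96), without Levodopa column 1 (−0.997) and without control column 2 (−0.993). PGRP-SD, another recognition gene, was the 1 gene called with Levodopa at 29 °C and in H1OE. It had 285 counts in H1OE and 398 with Levodopa, against 1231 in the control, which is 4.90-fold lower in H1OE and 3.36-fold lower with Levodopa. Between H1OE and Levodopa, 0 of 22 were called. Of all genes tested, 3.14% were called lower with Levodopa at 25 °C, 1.54% with Levodopa at 29 °C and 3.77% in H1OE against control. At 29 °C the counts of 1 and 0 among 22 genes are thus near the share of all genes.

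From the ligand to the NF-κB factors, 0 of 10 genes were called in any of the 4 comparisons. Of all genes tested, 1.15% to 3.77% were called in a given direction of a comparison. A count of 0 among 10 genes is near that share and is no result about these genes. Dif, the NF-κB factor chiefly used in the adult immune response, stood at 0.17 with Levodopa at 25 °C, 0.07 with Levodopa at 29 °C and 0.02 in H1OE against control. The values of dl, which encodes dorsal, were 0.50, 0.10 and −0.20 in the same order of comparisons. The inhibitor gene cact stood at 0.07, −0.03 and 0.04, the ligand gene spz at 0.12, −0.12 and −0.68, and the receptor gene Tl at 0.29, 0.01 and 0.08. Signs near 0 turned under other settings, as Dif and Tl did at 25 °C when the length trend was removed and cact did at 29 °C when scaled by total counts.

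**Figure D4:**
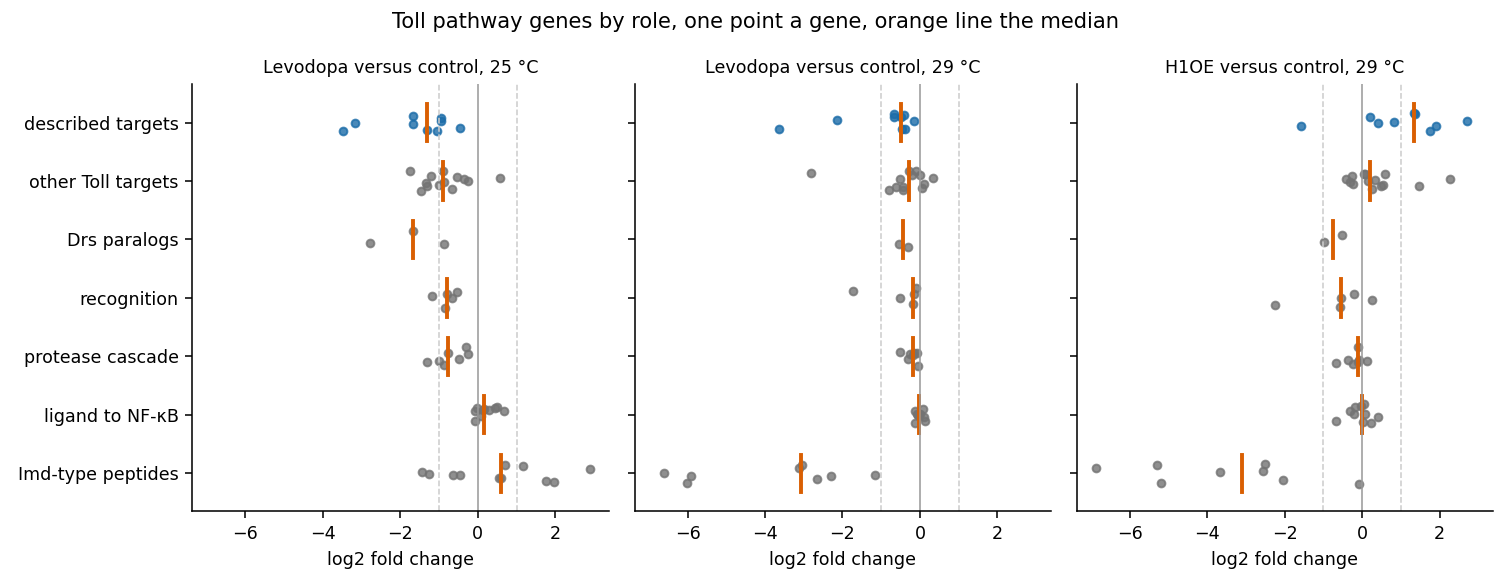
Log2 fold change of each gene tested, grouped by role in the Toll pathway with Imd-type peptides below, in 3 comparisons, with an orange line at each median and dashed lines at 2-fold. In H1OE against control the 9 described targets have a median of 1.34, the ligand-to-NF-κB genes one of −0.00 and the Imd-type peptides one of −3.10.

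Antibacterial peptides of the Imd type were mostly lower in H1OE. Of 8 tested there, 7 were lower than in the control and 0 higher, namely DptA, DptB, AttA, AttB, AttC, AttD and Dro, with log2 fold changes from −6.88 for AttC to −2.05 for AttB, while Def at −0.09 was not called. With Levodopa at 29 °C all 8 tested were lower, from −6.61 for DptB to −1.17 for Def, which was not called with 50 counts added. Both of these comparisons rest on the same 1 control library. The median log2 fold change was −3.10 for H1OE and −3.08 for Levodopa against that control, and 0.72 for H1OE against Levodopa. At 25 °C 2 of 11 were lower (AttB and Dro) and 4 higher (DptA, DptB, AttC and AttD), from −1.44 for Dro to 2.89 for AttD. With the length trend removed AttB, at −0.87, was not called. Between H1OE and Levodopa at 29 °C, DptB, AttB and Def were higher in H1OE, 3 of 7. With 50 counts added none of these 3 was called, and with 1 count added AttC was called lower and DptA higher as well. Over all genes tested, 3.77% were called lower in H1OE against control and 1.54% with Levodopa at 29 °C. With Levodopa at 25 °C the shares were 3.14% lower and 2.02% higher. For H1OE against Levodopa 3.15% were called higher.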

How the data were processed

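Per the submitters' processing notes, reads were aligned with HISAT2 2.2.1 to dm6. How reads were counted, with which annotation and strand setting, is not given in the sources used here. Per the file headers, the authors deposited whole-number counts per gene and FPKM values. Counts were the basis of every comparison, and the deposited FPKM only of the order of levels between genes. CPM was computed with TMM-scaled library sizes.

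At 25 °C, edgeR 4.0.16 in R 4.3.3 (quasi-likelihood F test, TMM, genes with at least 10 counts in 1 library, Benjamini-Hochberg adjustment over all genes tested) was fitted on 2 count columns per sample. At 29 °C each group is 1 library. A difference was called there when it passed 2-fold after adding 10 counts, and ratios carry exact 95% binomial counting intervals. The limit that a count of 0 allows, 3 counts, was 0.0947 to 0.124 CPM. A gene was tested when it had at least 10 counts in 1 of the libraries compared. All 9 genes passed in every comparison. 2 columns of the 29 °C table belong to no labelled sample and were not used.

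Column numbers at 25 °C are not stated to pair the samples. The fits were tested on simulated counts. Alternatives were DESeq2 1.42.0 or its size factors, total counts, other count filters and added counts, a loess fit on gene length (span 0.5), a replicate block, and each column left out. Coordinates of all 9 genes were the same in the Ensembl annotation of BDGP6, from which exons and overlaps were taken. Of 130 names on 14 gene lists, 123 were matched.

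The genes and lists were chosen with earlier results of these data known. Named were the 9 genes, every gene of the Toll and Imd lists that was called in a comparison, Dif, dl, cact, spz and Tl, the markers of fat body, haemocytes, photoreceptors and gut with the largest differences among those with at least 50 counts, and the 5 genes nearest to Drs. Obp99b, Fbp1, Yp2, BomT3 and the other bomanins of the cluster were named after their values were seen. Lists of neuron, glia and muscle markers are given by sums, counts or medians alone.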

Additional observations from a re-analysis of the deposited data

Results flagged for a closer look

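Some genes moved in opposite directions with Levodopa at the 2 temperatures, and this difference was not tested, since the tables were made separately. DptA had a log2 fold change of 1.96 at 25 °C and −6.01 at 29 °C. DptB had 1.16 at 25 °C and −6.61 at 29 °C. AttC had 1.76 at 25 °C and −5.90 at 29 °C. AttD had 2.89 at 25 °C and −2.29 at 29 °C. These 4 encode antibacterial peptides of the Imd type. The fat body marker Lsp2 had 3.10 at 25 °C and −1.36 at 29 °C. None of the 9 Toll target genes did so, being lower with Levodopa at both temperatures.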

How the results depend on the processing

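Over 287 recomputed differences of the 9 genes, 0 changed sign, and at 25 °C 6 of the 9 were lower whichever column was left out. Calls lost were BomS3 (−0.69) and BomBc2 (−0.97) with the length trend removed and BomS3 (−0.91) with total counts. The counts over all genes depended more on the settings. At 25 °C 371 genes were lower and 238 higher. With the length trend removed they were 166 and 321, and with total counts 208 and 356, so the larger direction turned. DESeq2 called 157 higher and a filter of 50 counts 137. Leaving out each column gave 312 to 373 lower and 137 to 190 higher. Column numbers were unrelated between the groups (correlation of deviations −0.000389), and a replicate block gave 361 lower and 218 higher, with no call changed among the 9 genes. At 29 °C, Levodopa gave 172 lower and 128 higher, against 424 and 396 with 1 count added, 34 and 5 with 50 added, 56 and 26 with a filter of 50, and 125 and 174 with the length trend removed. H1OE against control gave 428 and 380, against 701 and 742 with 1 count added, 168 and 88 with 50 added, and 240 and 160 with a filter of 50. H1OE against Levodopa gave 342 and 358, against 633 and 740, 111 and 103, and 187 and 180 under those settings. The cause of these shifts was not tested. The filter of 50 counts left BomBc1, at 5 and 13 counts, without a value for Levodopa at 29 °C, and depth limits that gene and Mtk most. Each group being 1 labelled sample, no setting measures variation between flies.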
